A study of Mus with 6 samples.

Results

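The genes described here control how long the transcription factors MYC and p53 persist in a cell, with Myc itself among them. They are Myc, the ubiquitin ligase receptors Fbxw7 and Skp2, the kinase Gsk3b, the deubiquitinases Usp28 and Usp7, the p53 inhibitors Mdm2 and Mdm4, and the cullin adaptor Ddb1. They were chosen by gene symbol in the array's annotation, and every probe with 1 of these 9 symbols was kept, which gave 21 of the 45281 probes on the array and 9 of 19057 named genes. The samples were 3 Klf4-deficient and 3 wild-type (WT) arrays of leukaemic cells, all from C57BL/6 mice per the labels and all carrying the p210 form of BCR-ABL, the fusion kinase of chronic myeloid leukaemia (CML). The cells were taken from bone marrow 14 days after transplantation and sorted as green fluorescent, lineage-negative, Sca-1 and c-Kit positive (LSK) cells, a fraction that holds leukaemia stem cells. The labels do not state how or in which cells Klf4 was removed, or how old the mice were. Nor do they say whether each sample was a mouse of its own, so the error given is that between 3 samples and may be purely technical.

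MYC is short-lived. Its N-terminal degron is phosphorylated first by a priming kinase and then by GSK3B, the doubly modified form is bound by FBXW7, the receptor of an SCF (SKP1, cullin, F-box) ubiquitin ligase, and the deubiquitinase USP28 can reverse that step. SKP2 is another SCF receptor that ubiquitinates MYC and also degrades the cell cycle inhibitor p27. p53 is held low by MDM2, a ubiquitin ligase, together with its relative MDM4, which binds p53 and has little ligase activity of its own, while USP7 removes ubiquitin from both p53 and MDM2. DDB1 links substrate receptors to CUL4 ligases and also forms part of a ligase that the kinase DYRK2 assembles. The title of the series names DYRK2, and the question here is whether transcripts of this turnover machinery differ with Klf4 status.

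The arrays limit what can be said, and their state is given once. Deposited intensities are linear, background-subtracted values, and any value below 32 was set to 32 (the floor) before the log2 was taken. This is just past the mirror image of the lowest deposited value, -31. Between 7199 and 7214 probes lay above 32 on the Klf4-deficient arrays, and between 7082 and 7214 on the WT arrays. Across the 18270 probes tested, r between WT replicate 3 and each other array was 0.29 to 0.30, while r among the remaining 5 arrays was 0.66 to 0.72. These are correlations across probes, which are not independent replicates. Of the sort markers, Ly6a, which encodes Sca-1, was not analysed here, and Kit was above the floor on its brightest probe on 2 of 3 Klf4-deficient and 1 of 3 WT arrays. None of 6 stem and progenitor markers was above the floor on all 6 arrays, and Slamf1 was above it on none. Genes listed as markers of other lineages were also above the floor. Flt3 stands in both the stem and the dendritic list, and whether the sorted cells themselves express such genes was not tested. The summed intensity of 6 erythroid genes was 3600.3 to 4051 on Klf4-deficient arrays and 882.5 to 3653 on WT arrays, with only Epor never above the floor. The sum of 8 neutrophil genes was 2014 to 2978 on Klf4-deficient arrays and 2063 to 7794 on WT arrays, with only Ngp never above it. Mast cell and basophil genes summed to 2482 to 3724 on Klf4-deficient arrays and 1221 to 3066 on WT arrays (5 of 6 above the floor on at least 1 array). T and NK cell genes (7 of 7) summed to 309.6 to 421.7 on Klf4-deficient and 113.9 to 327.1 on WT arrays, dendritic cell genes (4 of 5, Itgax never above it) to 1478 to 3374 on Klf4-deficient and 2665 to 4420 on WT arrays, and monocyte genes (6 of 7, Ccr2 never above it) to 64.2 to 154.4 on Klf4-deficient and 83 to 664.2 on WT arrays. Of 4 B cell genes, Cd79b, Ms4a1 and Pax5 were never above it, and the sums were 40 to 143.4 on Klf4-deficient and 52.6 to 92.8 on WT arrays. Their part in the values below was not tested. The number of cells of a type and the RNA per cell cannot be told apart in such bulk samples.

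Transcripts of the turnover genes were mostly dim, and none of their probes passed the test between Klf4-deficient and WT cells. Of the 126 values of the 21 probes on 6 arrays, 47 lay above the floor (37.3%). The share over all probes was lower, at 15.6% to 15.9% on each array. No value above it was found for 3 genes, Skp2, Usp28 and Ddb1, each with a single probe. Fbxw7 had the only probe above the floor on all 6 arrays. Probes were tested if at least 1 array exceeded 32, which kept 14 of the 21 member probes, from 6 of the 9 genes. Of all probes 40.3% were kept, and of those with 1 gene symbol 42.2%. The test was limma with Benjamini-Hochberg adjustment over all probes tested and called 0 of the 14 member probes at an adjusted p under 0.05, against a background of 0% of 18270 probes called. At an unadjusted p under 0.05 there were 0 member probes and 371 probes in all, or 2.03%. The ordinary t statistic called 1 probe of all and reached an unadjusted p under 0.05 for 239.

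**Figure D1:**
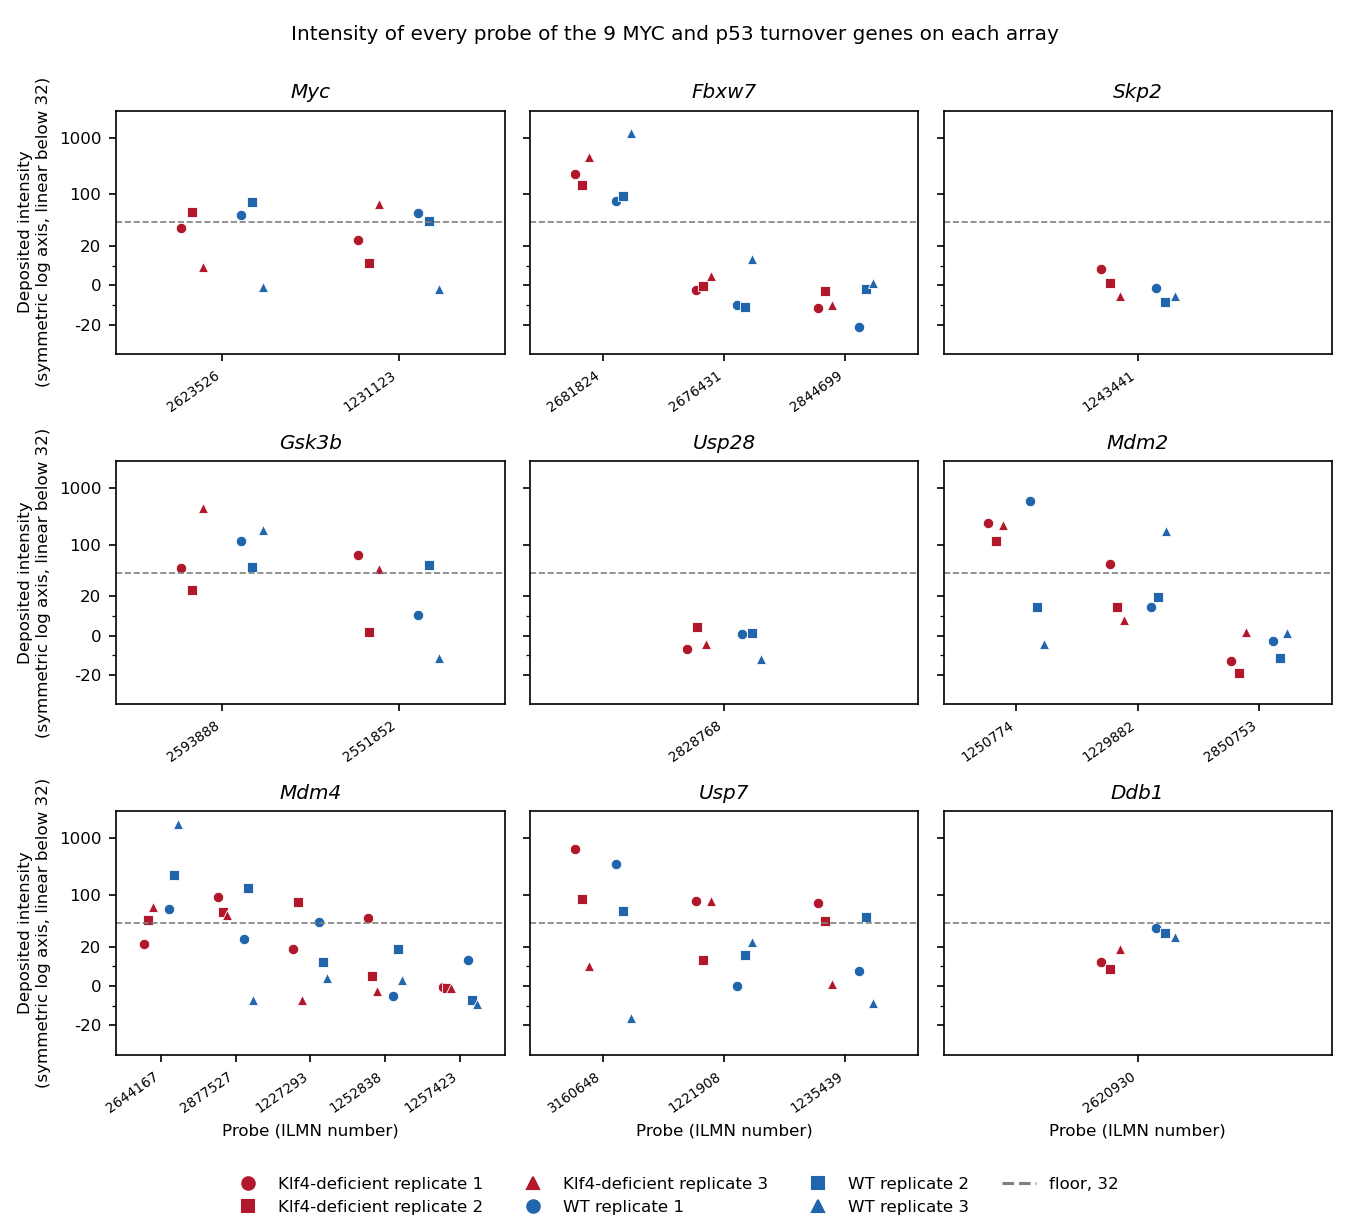
Deposited intensity (symmetric log axis, linear below 32) of each of the 21 probes, with 1 point per array, Klf4-deficient arrays in red on the left and WT arrays in blue on the right of each probe. The dashed line is the floor of 32; all points of Skp2, Usp28 and Ddb1 lie below it, and WT replicate 3 holds the top value of Fbxw7 (1190.6) and of Mdm4 (1767.3).

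Myc was near the floor in both groups. On probe ILMN_2623526 it read 29, 47.8 and 9.5 on Klf4-deficient arrays and 43.9, 71.7 and -0.9 on WT arrays. On probe ILMN_1231123 it read 22.9, 11.2 and 66.3 on Klf4-deficient arrays and 46.9, 34 and -1.9 on WT arrays. On each probe 1 Klf4-deficient array and 2 WT arrays exceeded the floor, but the Klf4-deficient array was replicate 2 on one probe and replicate 3 on the other, and WT replicate 3 was the lowest array on both. The groups overlapped on both probes. The difference was -0.35 ± 0.37 (log2, SE, n = 3 arrays each, limma adjusted p = 0.71) on the first and 0.14 ± 0.37 (limma adjusted p = 0.86) on the second. The 95% confidence intervals ran from -1.29 to 0.60 and from -0.81 to 1.08, so a difference of 1 log2 unit in one direction lies inside each. Values at the floor have no measured spread, so these intervals are narrower than the arrays' signal warrants.

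Fbxw7, the receptor that recognises the phosphorylated MYC degron, was above the floor on every array on 1 of its 3 probes. Probe ILMN_2681824 read 228.3, 143.2 and 461.4 on Klf4-deficient arrays and 76.6, 93.3 and 1190.6 on WT arrays. All 3 Klf4-deficient values lay between WT replicates 1 and 2 on one side and WT replicate 3 on the other. The difference was 0.28 ± 1.20 (log2, SE, n = 3 arrays each, limma adjusted p = 0.92), with an SD of 0.85 (log2) in Klf4-deficient and 2.21 in WT arrays. Without WT replicate 3 the groups no longer overlapped and the difference was 1.55 (limma adjusted p = 0.84, unadjusted p = 0.049, with adjusted p between 0.84 and 0.97 in all alternatives). Without WT replicate 1 it was -0.43, and without WT replicate 2 or Klf4-deficient replicate 3 it was also below 0, so its direction was not fixed by the data. The other 2 Fbxw7 probes, annotated to the same transcript, stayed between -11.4 and 4.5 on Klf4-deficient arrays and between -21.1 and 13.4 on WT arrays, which is background.

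The genes whose values over the 6 arrays were most like those of the bright Fbxw7 probe were Tbrg1 (Pearson r = 0.98) and Gse1 (r = 0.96), among 735 named genes above the floor on all 6 arrays. Tbrg1 read 94.5, 84.6 and 157.8 on Klf4-deficient arrays and 38.9, 32.4 and 418.7 on WT arrays. Gse1 read 255.2, 291.8 and 581.5 on Klf4-deficient arrays and 131.2, 95.8 and 1210.5 on WT arrays. Both were thus highest in WT replicate 3 and lowest in the other WT arrays, as Fbxw7 was. Over the 5 arrays without WT replicate 3, r was 0.94 and 0.92. These are the 2 highest of 735 correlations and are given as a description.

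Skp2 and Usp28, the other SCF receptor and the deubiquitinase that opposes FBXW7, could not be compared. Skp2 read 8.4, 1.4 and -5.3 on Klf4-deficient arrays and -1.5, -8.6 and -5.2 on WT arrays. Usp28 read -6.7, 4.2 and -4.2 on Klf4-deficient arrays and 0.7, 1.3 and -11.7 on WT arrays. A transcript level of either gene was not detectable at this signal in either group. The Skp2 probe is annotated to a cDNA clone rather than to a RefSeq transcript, as are 1 probe each of Gsk3b and Mdm4, against 18 member probes with a RefSeq target.

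Gsk3b, the kinase that completes the MYC degron, differed more between arrays of a group than between groups. Probe ILMN_2593888 read 38.8, 23.4 and 438.8 on Klf4-deficient arrays and 116.3, 39.9 and 181.2 on WT arrays. The cDNA-derived probe ILMN_2551852 read 66.8, 1.9 and 36.8 on Klf4-deficient arrays and 10.4, 43.9 and -11.3 on WT arrays. On the first probe Klf4-deficient replicate 3 stood far above the rest, and on the second it was close to the floor. The differences were -0.21 ± 1.21 and 0.27 ± 0.35 (log2, SE, n = 3 arrays each, limma adjusted p = 0.94 and 0.73). Without Klf4-deficient replicate 3 the first became -1.42, and without Klf4-deficient replicate 2 it became 0.47.

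Mdm2, the main ubiquitin ligase for p53 and itself a p53 target gene, was above the floor in every Klf4-deficient sample on its brightest probe. Probe ILMN_1250774 read 240.6, 114.8 and 222.2 on Klf4-deficient arrays and 595.7, 14.4 and -4.1 on WT arrays. WT replicate 1 was the highest of all and the other 2 WT arrays lay below the floor, so the groups overlapped through that array alone. The difference was 1.11 ± 1.27 (log2, SE, n = 3 arrays each, limma adjusted p = 0.72). It was 2.52 without WT replicate 1 (limma adjusted p = 0.46, unadjusted p = 0.0031) and 0.41 without WT replicate 2 or without WT replicate 3, with adjusted p between 0.46 and 0.92 in all alternatives.

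A second Mdm2 probe went the other way. ILMN_1229882 read 45.6, 14.8 and 8.2 on Klf4-deficient arrays and 14.5, 19.7 and 174.7 on WT arrays, with 1 array of each group above the floor. Its difference was -0.65 ± 0.74 (log2, SE, n = 3 arrays each, limma adjusted p = 0.72), and 0.17 without WT replicate 3, the array that carried the WT signal. The remaining probe, ILMN_2850753, lay between -19.1 and 1.7 on Klf4-deficient arrays and between -11.4 and 1.6 on WT arrays. With the 3 probes averaged on the log2 scale, an alternative chosen after seeing the data, Mdm2 differed by 0.15 ± 0.39 (limma adjusted p = 0.87 over 10236 genes).

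Mdm4, the MDM2 relative that inhibits p53, had the largest difference of the 14 tested member probes, on 1 of its 5 probes. Probe ILMN_2644167 read 21.3, 37.1 and 61.1 on Klf4-deficient arrays and 56.2, 225.6 and 1767.3 on WT arrays. The groups overlapped only in that Klf4-deficient replicate 3 exceeded WT replicate 1, and the SD was 0.49 (log2) in Klf4-deficient and 2.50 in WT arrays. The difference was -2.76 ± 1.30 (log2, SE, n = 3 arrays each, 95% confidence interval -6.05 to 0.53) and missed the threshold (limma adjusted p = 0.71, unadjusted p = 0.084). It was -1.43 without WT replicate 3 and -3.92 without WT replicate 1. The unadjusted p fell below 0.05 under some alternatives, such as 0.016 with an offset of 16 and 0.023 with trend and robust eBayes, but the adjusted p stayed between 0.43 and 0.92 over the alternatives.

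The other 4 Mdm4 probes did not follow the bright one. ILMN_2877527 read 91.7, 49.7 and 44.8 on Klf4-deficient arrays and 24.1, 132 and -6.9 on WT arrays, so all Klf4-deficient arrays but only 1 WT array exceeded the floor. Its difference was 0.20 ± 0.68 (log2, SE, n = 3 arrays each, limma adjusted p = 0.89). ILMN_1227293 read 19, 75.4 and -6.8 on Klf4-deficient arrays and 33.8, 12.1 and 4 on WT arrays, a difference of 0.39 ± 0.39 (limma adjusted p = 0.71). These 2 probes were annotated to the same RefSeq transcript as the bright one, and WT replicate 3, its highest array, was below the floor on both. ILMN_1252838, the cDNA-derived probe, exceeded the floor only in Klf4-deficient replicate 1 (39.7), with the other 5 arrays at the floor, a fitted difference of 0.10 ± 0.17 (limma adjusted p = 0.78). ILMN_1257423 was at background, between -1.1 and -0.4 on Klf4-deficient arrays and between -9.1 and 13.5 on WT arrays. With all 5 probes averaged, Mdm4 differed by -0.41 ± 0.28 (log2, SE, limma adjusted p = 0.75 over 10236 genes), so the size on the bright probe was not shared by the gene's other probes.

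Usp7, the deubiquitinase of p53 and MDM2, was higher in Klf4-deficient arrays on all 3 of its probes, with no difference past the test. ILMN_1221908 read 78.8, 13.3 and 79.9 on Klf4-deficient arrays and 0.1, 15.6 and 22.4 on WT arrays. Klf4-deficient replicates 1 and 3 stood above the floor and Klf4-deficient replicate 2 fell within the WT range, below it. The fitted difference was 0.87 ± 0.41 (log2, SE, n = 3 arrays each, limma adjusted p = 0.71, unadjusted p = 0.084). It depends on the floor, since all WT arrays and Klf4-deficient replicate 2 were set to it, and was 0.21 with a floor of 64. Without Klf4-deficient replicate 2 it was 1.31 (limma adjusted p = 0.72, unadjusted p = 0.0028), with adjusted p between 0.43 and 0.88 in all alternatives.

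The brightest Usp7 probe, ILMN_3160648, read 650, 86.6 and 10.1 on Klf4-deficient arrays and 358, 53 and -16 on WT arrays. In each group replicate 1 was highest and replicate 3 lowest, and the spread within groups (SD 2.21 and 1.84 log2) far exceeded the difference of 0.52 ± 1.46 (limma adjusted p = 0.87). ILMN_1235439 read 71.9, 35.6 and 1 on Klf4-deficient arrays and 7.6, 40.4 and -8.5 on WT arrays, a difference of 0.33 ± 0.37 (limma adjusted p = 0.71). Leaving out Klf4-deficient replicate 1 turned the first of these to -0.69 and the second to -0.04. With the 3 probes averaged, Usp7 differed by 0.57 ± 0.61 (log2, SE, limma adjusted p = 0.75 over 10236 genes).

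Ddb1, the CUL4 adaptor, was the 1 member whose deposited values did not overlap between groups, although all lay below the floor. It read 12.2, 8.9 and 18.7 on Klf4-deficient arrays and 29.5, 26.8 and 24.8 on WT arrays. The means were 13.3 ± 5.0 in Klf4-deficient and 27.0 ± 2.4 in WT arrays (SD, n = 3 each), a difference of -13.8 intensity units with an exact two-sided permutation p of 0.1, the smallest that 3 against 3 arrays can give. Among the 27011 probes that never exceeded the floor, 7.47% had all Klf4-deficient values below all WT values. With a floor of 16 the probe could be tested, and its difference was -0.68 (log2, limma adjusted p = 0.76). Values in this range cannot be told from background, and Ddb1 was singled out after its values were seen.

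**Figure D2:**
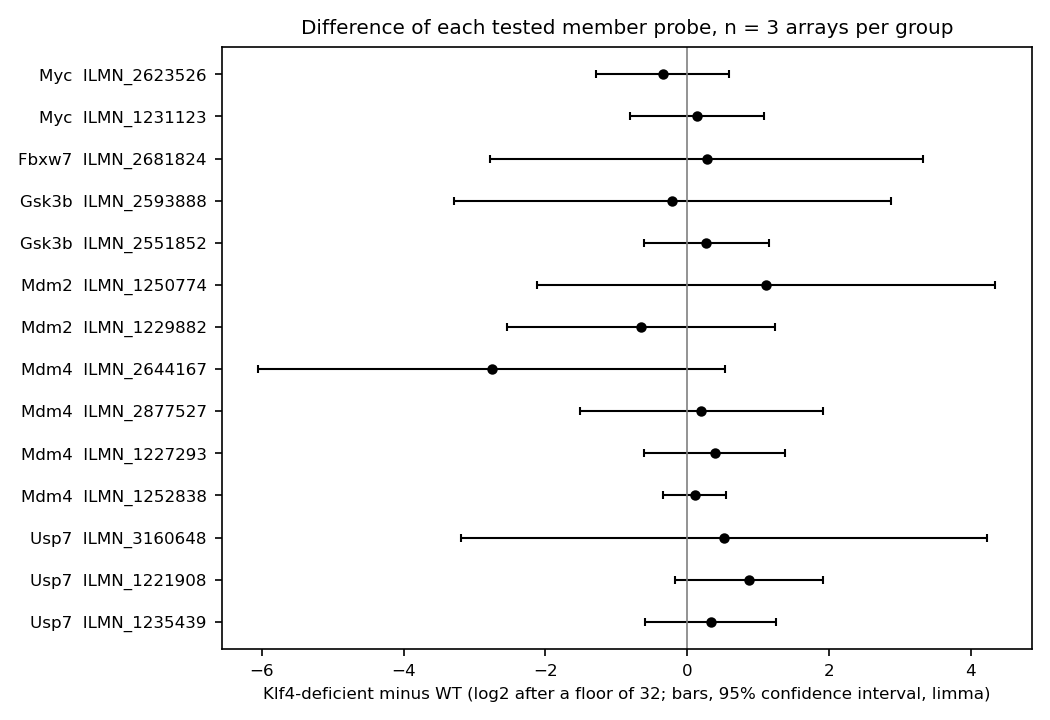
Difference of each of the 14 tested member probes between Klf4-deficient and WT arrays (x axis, log2 after a floor of 32), with 95% confidence intervals from limma and 3 arrays per group. Every interval includes 0; the widest belongs to the brightest Usp7 probe (-3.18 to 4.23), and the point farthest from 0 to Mdm4 ILMN_2644167 (-2.76).

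Across the 14 tested probes, 10 were higher in Klf4-deficient arrays and 4 were lower. The median difference was 0.23 (log2), beside 45.8% higher and a median of -0.05 over all 18270 probes tested. That contrast depended on the filter. Among probes above the floor on at least 3 arrays, the medians were 0.23 for member probes and 0.22 for all. With the brightest probe of each gene they were 0.03 and -0.07. Leaving out Klf4-deficient replicate 1 gave -0.04 for member probes and -0.11 for all. A floor of 16 gave a wider gap, 0.35 against -0.07. A difference of at least 1 log2 unit upward was seen for 1 member probe, Mdm2 ILMN_1250774, or 7.14%, beside 9.49% of all tested probes. Downward it was seen for 1, Mdm4 ILMN_2644167, again 7.14%, beside 7.04% of all tested probes. After the floor, the groups did not overlap for 0 of the 14 member probes, beside 3.09% of all tested probes. The half-width of the 95% confidence interval ran from 0.44 to 3.71 (log2), with a median of 1.38, and the residual SD had a median of 0.73 for member probes and 0.69 for all tested probes. Differences of the size of 1 log2 unit were therefore not detectable for most of these probes.

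Probes of the same gene disagreed in direction as often as they agreed. Of the 12 pairs of tested probes within Myc, Gsk3b, Mdm2, Mdm4 and Usp7, 6 had differences of the same sign, beside 56.4% of 6392 such pairs over 3148 genes. The same array was highest on both probes in 1 of the 12 pairs, namely Usp7 ILMN_3160648 and ILMN_1235439 with Klf4-deficient replicate 1, beside 28.2% of all pairs. Pairs of 1 gene share their arrays and, in Mdm4 and Usp7, share probes with each other, so they are given as a description. Usp7 was the only gene of the 5 whose tested probes all had 1 sign.

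**Figure D3:**
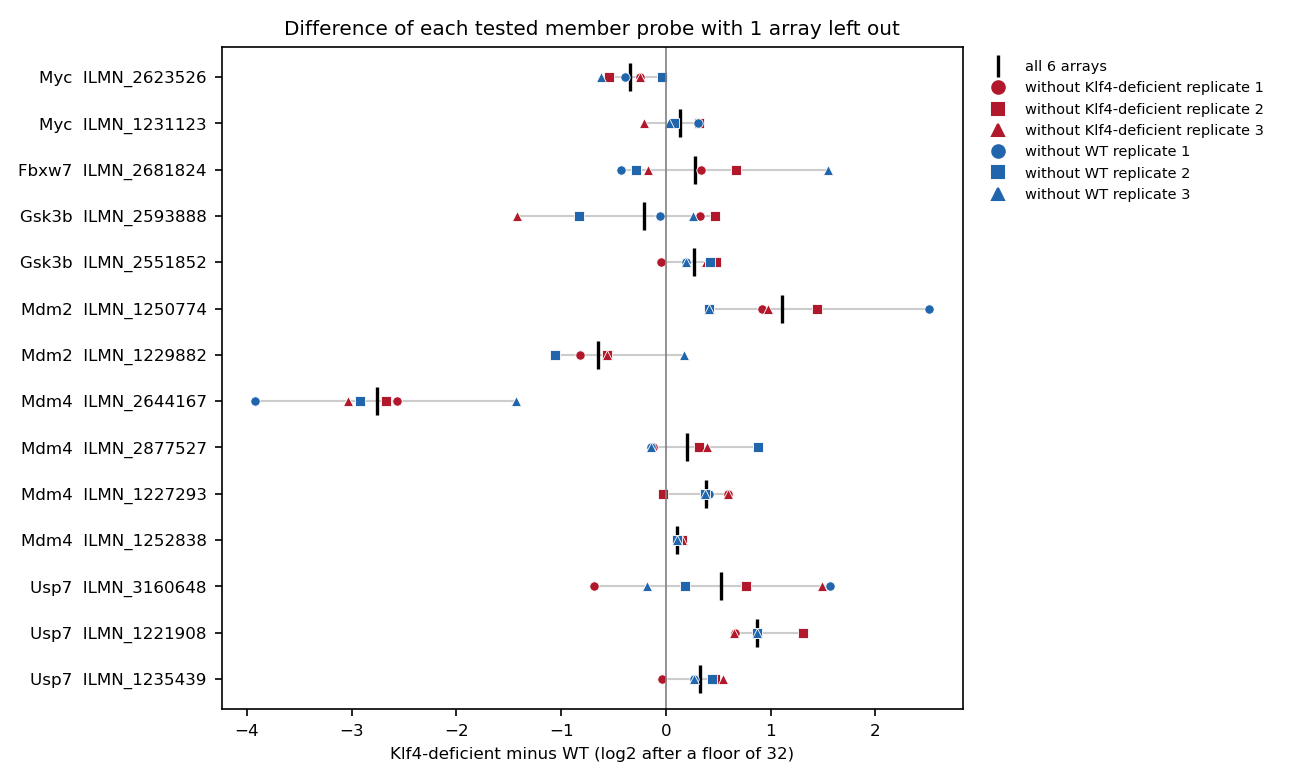
Difference between Klf4-deficient and WT arrays (log2 after a floor of 32) for each tested member probe with all 6 arrays (black bar) and with 1 array left out (points, coloured by the group of the array left out). The points of Fbxw7 run from -0.43 to 1.55 and those of the brightest Gsk3b probe from -1.42 to 0.47, on both sides of 0, while those of Mdm4 ILMN_2644167 run from -3.92 to -1.43.

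The array that stood apart, WT replicate 3, had the fewest member probes above the floor. Of the 21 member probes, 10, 8 and 8 were above the floor on Klf4-deficient replicates 1, 2 and 3, and 8, 9 and 4 on WT replicates 1, 2 and 3. WT replicate 3 was the lowest array on 7 of the 14 tested probes (50%), beside 28.6% of all tested probes, among them both Myc probes and 2 of 3 Usp7 probes. Its deposited values on these 7 probes were all negative, so they were ranked below the floor. It was the highest on 3 of the 14 (21.4%), beside 29.2% of all, namely Fbxw7 ILMN_2681824, Mdm2 ILMN_1229882 and Mdm4 ILMN_2644167. Klf4-deficient replicate 1 was the highest array on 4 member probes (28.6%), beside 13.8% of all. Whether these shares differ beyond chance was not tested.

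**Figure D4:**
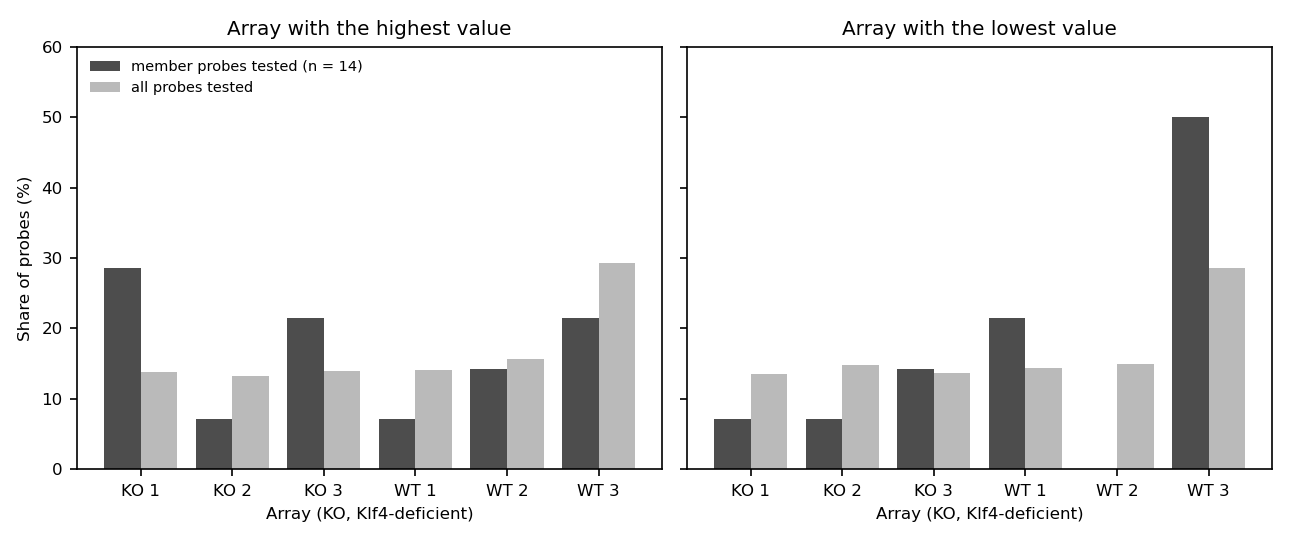
Share of probes (%) for which each array held the highest (left panel) or lowest (right panel) of the 6 values, for the 14 tested member probes (dark bars) and all 18270 tested probes (light bars). WT replicate 3 was lowest on 50% of member probes and 28.6% of all probes.

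Other genes of MYC and p53 turnover were followed in 8 lists of 83 genes, of which 76 had a named probe and 62 were tested with 104 probes. With Klf4-deficient minus WT as the direction, 55 of those probes were above 0 and 49 below (median 0.04 log2), 0 were called over all probes tested, 3 reached an unadjusted p under 0.05, and 4 did not overlap between groups (3.85%, beside 3.09% of all probes tested). The list of SCF core and adaptors also holds F-box proteins other than FBXW7 and SKP2. Some of its differences were small, such as 0.058 for Fbxo28 and 0.057 for Cand1 ILMN_1252356. It had 15 of 18 probes higher (83.3%, beside 45.8% of all probes tested, median 0.21), 0 of them past the test. Within it Fbxl14, an F-box protein, read 1088.7, 939.4 and 1318.4 on Klf4-deficient arrays and 515.7, 998.2 and -4.2 on WT arrays (2.12 ± 1.34 log2, SE, limma adjusted p = 0.71), a difference that was 0.62 without WT replicate 3. The brightest probe of Btrc, which encodes the F-box protein beta-TrCP, was above the floor on 0 of 3 Klf4-deficient and 2 of 3 WT arrays (-0.95 ± 0.52, limma adjusted p = 0.71). It differed by -0.45 without WT replicate 1. The other tested Btrc probes differed by 0.085 ± 0.17, with 1 Klf4-deficient array above the floor, and 0.013 ± 0.16, with 1 array of each group above it. Rbx1, the RING subunit that recruits the ubiquitin-conjugating enzyme to cullins, was singled out after its values were seen. Its probe ILMN_1230583 read 127.6, 415.1 and 245.3 on Klf4-deficient arrays and 37.3, 0.1 and -4 on WT arrays, without overlap, a difference of 2.80 ± 0.46 (limma adjusted p = 0.71, unadjusted p = 0.0015). Its brighter probe read 1305.5, 497.9 and 2259.9 on Klf4-deficient arrays and 821.4, 1333.9 and -5.4 on WT arrays, a difference of 1.80 ± 1.59 that was 0.12 without WT replicate 3.

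The DDB1-CUL4 ligase subunits had 14 of 23 probes higher and 9 lower in Klf4-deficient arrays (median 0.20, 0 called). The 2 genes with the smallest p were both higher without overlap, and theirs were the only 2 of the 23 probes without overlap (8.70%, beside 3.09% of all probes tested). Dtl, the CUL4 receptor also called CDT2 that acts during DNA replication, read 225.3, 70.2 and 69.3 on Klf4-deficient arrays and 42.7, 21.9 and -6.6 on WT arrays (1.55 ± 0.53 log2, SE, n = 3 arrays each, limma adjusted p = 0.71, unadjusted p = 0.031). Dda1, a small DDB1-binding subunit, read 49.1, 227.7 and 72.4 on Klf4-deficient arrays and 13.4, 33.1 and 6.7 on WT arrays (1.53 ± 0.60, limma adjusted p = 0.71, unadjusted p = 0.050). Neither passed the test, and leaving out 1 array moved Dtl between 0.99 and 1.84 and Dda1 between 0.88 and 1.99. With a floor of 64 the differences were 0.69 for Dtl and 0.67 for Dda1. Of the other tested Dda1 probes, ILMN_1242559 was higher (1.00) and ILMN_2541190 lower (-0.10), each with only 1 array above the floor. The other Dtl probe was higher (0.50).

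On the p53 side, other p53 ubiquitin ligases had 4 of 14 probes higher and 10 lower (median -0.23), and p53 deubiquitinases with MDM2 inhibitors 5 of 17 higher and 12 lower (median -0.11), with 0 called in either. Rassf1, which encodes a tumour suppressor that can bind MDM2, read 32.3, 38.6 and 42.1 on Klf4-deficient arrays and 43.6, 139.2 and 334.6 on WT arrays, without overlap (-1.76 ± 0.77 log2, SE, n = 3 arrays each, limma adjusted p = 0.71). The gap between the nearest arrays of the 2 groups was that between 42.1 and 43.6. Usp10, a p53 deubiquitinase, differed by -0.90 ± 0.44. The ligases Topors and Syvn1 were above the floor on 0 of 3 Klf4-deficient arrays and 2 of 3 WT arrays (-0.86 ± 0.41 and -0.37 ± 0.29). Leaving out 1 array moved Rassf1 between -2.53 and -1.06, Usp10 between -1.36 and -0.58, Topors between -1.28 and -0.58 and Syvn1 between -0.55 and -0.085. Another Rassf1 probe, ILMN_1218841, went the other way (0.46 ± 0.73). The probes named first for these 4 genes had a limma adjusted p of 0.71.

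On the MYC side, other MYC ubiquitin ligases had 4 of 9 probes higher and 5 lower (median -0.12), led by Trpc4ap, a substrate receptor of a DDB1-CUL4 ligase (0.67 ± 0.41 log2, SE), and the large HECT ligase Huwe1 (-1.47 ± 1.11). Both had another probe of opposite sign, at -0.57 ± 0.52 for Trpc4ap ILMN_2586669 and 1.35 ± 1.19 for Huwe1 ILMN_2578798. Each of these probes was above the floor on 1 array only, WT replicate 3 for Trpc4ap (104.5) and Klf4-deficient replicate 3 for Huwe1 (530.5). MYC deubiquitinases and stabilisers had 7 of 13 higher and 6 lower (median 0.16), with the nucleolar deubiquitinase Usp36 at 1.23 ± 0.80, beside -0.14 ± 0.29 on its other probe, and Otud6b at 0.81 ± 0.63. The kinases and phosphatases of the MYC phosphorylation switch had 3 probes tested, 1 higher and 2 lower (median -0.11), with the protein phosphatase 2A subunits Ppp2r1a at -2.24 ± 1.43 and Ppp2cb at 0.31 ± 0.23. MYC network partners had 5 of 7 higher and 2 lower (median 0.77), with Mxd1, a repressor that competes with MYC for MAX, at 1.31 ± 0.77 and Zbtb17, which encodes the MYC partner MIZ1, at -0.84 ± 0.48. None of these 4 lists had a probe called, and the 8 genes had a limma adjusted p of 0.71 on the probe named first. These values also moved with single arrays. Without Klf4-deficient replicate 1 Otud6b was 0.11 and Trpc4ap 0.27. Without Klf4-deficient replicate 3 Usp36 was 0.42, Mxd1 0.57 and Huwe1 -0.50, and without WT replicate 3 Ppp2r1a was -0.96. The median of the MYC network partners was the value of Mxd3 ILMN_2642571, a probe above the floor only on Klf4-deficient replicate 3 (157.9).

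**Figure D5:**
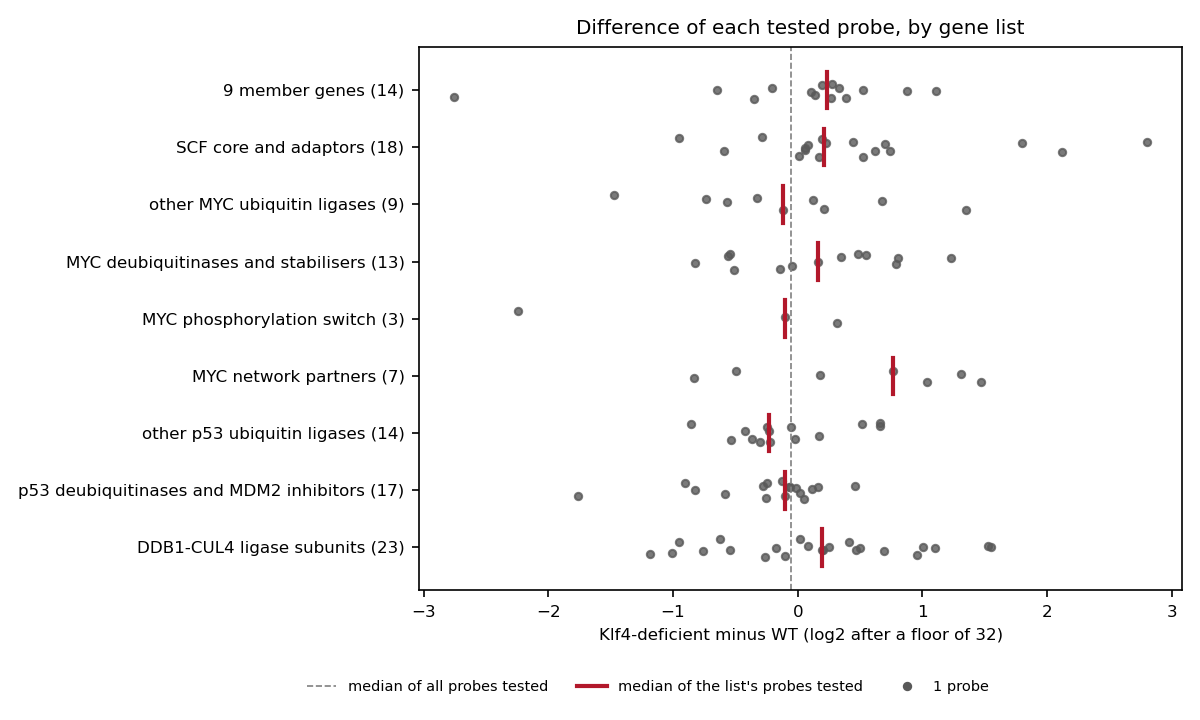
Difference between Klf4-deficient and WT arrays (x axis, log2 after a floor of 32) of each tested probe of the 9 member genes and of 8 lists of other turnover genes, with the number of probes in brackets and the list median as a red bar. The dashed line is the median of all probes tested (-0.05). List medians lie between -0.23 and 0.77, the latter the value of a probe above the floor on 1 array. Most lists have points on both sides of 0 beyond 0.5.

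Klf4 and Dyrk2 themselves gave no anchor for these values. The 3 Klf4 probes exceeded the floor once, at 51.9 in WT replicate 2, so the arrays do not check the genotype labels. Dyrk2 read 33.4, 8.3 and 19.4 on Klf4-deficient arrays and -1.2, 58.8 and 18.9 on WT arrays on its brighter probe (-0.27 ± 0.30 log2, SE, limma adjusted p = 0.71). Siah2, a ubiquitin ligase acting on DYRK2, was below the floor on all arrays. Trp53, the gene of p53, was not analysed here. Protein levels of MYC and p53, on which these genes act, were not measured by the arrays.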

How the data were processed

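RNA of 6 samples was measured on Illumina mouse bead arrays, 3 per group by title. The authors' deposited table holds 1 linear intensity per probe and array. The submitters' processing notes name BeadStudio. No version, background or normalization method is stated in the labels. The lowest deposited value was -31 and the highest 37007.2; 45.3% to 45.6% of an array's values were 0 or less, and the sorted columns agreed within 5% or 0.15 at 95.4% of ranks, so a background had been subtracted and the arrays put on one scale. Such scaling hides differences in total RNA. The values were used without renormalization, raised to a floor of 32 and log2-transformed. Probes were named through the platform annotation, updated by Entrez number in a RefSeq list; 34885 had 1 symbol, 18 several and 10378 were not listed.

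Each probe above 32 on at least 1 array was fitted separately with limma 3.58.1 (lmFit, eBayes; R 4.3.3), without a block, and adjusted over all 18270 probes. The fit was run on simulated data as a check of the code. The simulated spread was smaller than the median residual SD of these arrays, and changes were placed only in brighter probes. That run therefore does not measure the power of the fit here. Members, lists and tests were chosen with earlier results of these data known. Genes named from each list are the 2 with the smallest p on their brightest probe; for each member whose brightest probe exceeded the floor on all arrays, the 2 genes with the highest correlation are named. Alternatives were other floors, an offset, other filters, quantile normalization, moderated variance with trend, the brightest or mean probe per gene, a replicate block and leaving out each array. The number of arrays limits the precision.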

Additional observations from a re-analysis of the deposited data

How the results depend on the processing

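No member probe and no probe of the lists was called under any of the alternatives run. Without a filter 1 probe was called in all, and under each other alternative 0. The groups did not overlap for 564 probes in the main fit. The number was 937 with a floor of 16, 364 with a floor of 64 and 1485 with an offset of 16. With 1 array left out it was 1117 to 1741. Groups with fewer arrays separate more readily by chance, so those counts are not comparable with 564. Probes at an unadjusted p under 0.05 numbered 175 to 809 over the alternatives, against 371. Of 202 values of the 14 member probes under alternatives, 182 kept their direction and 20 turned; 5 probes never turned. With a floor of 16 Myc ILMN_1231123 became -0.024 (log2), with a floor of 64 Gsk3b ILMN_2593888 became 0.14 and Mdm4 ILMN_2877527 -0.18, and Gsk3b became 0.030 as the mean of its probes. Leaving out 1 array gave ranges of -0.21 to 0.31 for Myc ILMN_1231123, -0.43 to 1.55 for Fbxw7, -1.42 to 0.47 and -0.051 to 0.48 for Gsk3b, -1.05 to 0.17 for Mdm2 ILMN_1229882, -0.14 to 0.88 and -0.026 to 0.59 for Mdm4 ILMN_2877527 and ILMN_1227293, and -0.69 to 1.56 and -0.035 to 0.55 for Usp7 ILMN_3160648 and ILMN_1235439. The cause was not tested. Values of the named list genes kept their direction but not their size. These genes were chosen for a small p on the same arrays, and that choice favours a kept direction. They are therefore not comparable in this with the member probes. With 1 array left out the range was 0.11 to 1.21 for Otud6b, 0.42 to 1.93 for Usp36 and 0.57 to 2.04 for Mxd1. It was 0.62 to 3.10 for Fbxl14, -2.23 to -0.50 for Huwe1 and -3.63 to -0.96 for Ppp2r1a. Differences of probes with a group at the floor depend on the floor and bound nothing. With the replicate number as a replicate block, 0 probes were called and 362 had an unadjusted p under 0.05. Deviations from the group mean had r = 0.03 to 0.04 between same-numbered arrays and r = -0.03 to -0.01 between differently numbered arrays. Each array thus correlated best with its own number, but every r was near 0. Deviations within a group add to 0, so these correlations are tied to each other. Whether the arrays form pairs was not tested, and the main fit had no block. Signal near background limits most of these probes.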
